A study of Arabidopsis thaliana with 10 samples.

Results

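The plastid chromosome of Arabidopsis thaliana holds the photosynthesis genes that plants kept from their cyanobacterial ancestor. This account covers 49 plastid loci, chosen by their identifiers as the psa, psb, pet, atp and ndh genes, rbcL, ycf3, ycf4, cemA and ccsA. They were 49 of 133 plastid loci and of 73194 features in the RNA count table. Seedlings carried fve-8 (labelled -/-) or were the WT of that mutant, a line labelled E5-4. Both were of the Ler ecotype, were grown untreated on MS medium under mid light and were harvested whole at 5 days. Each genotype had 3 RNA libraries, made with a stranded total RNA kit after Trizol extraction. The labels do not say that the libraries of 1 genotype came from separate plants, so p-values measure the spread between these libraries, which may be technical. The 4 small RNA libraries of the series were not used.

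Plastid-encoded proteins form the cores of the photosynthetic machinery, and nuclear genes supply the remaining subunits. The psb and psa genes encode parts of photosystem II and photosystem I, and the pet genes encode parts of the cytochrome b6f complex between them. The atp genes encode subunits of the plastid ATP synthase, the ndh genes subunits of the NDH complex of cyclic electron flow, and rbcL the large subunit of the carbon-fixing enzyme Rubisco. The ycf3 and ycf4 products help to assemble photosystem I, ccsA acts in the attachment of haem to c-type cytochromes, and cemA encodes a protein of the plastid envelope. Photosynthesis genes are transcribed largely by the plastid-encoded RNA polymerase, which is directed to promoters by nuclear-encoded sigma factors. Many are transcribed together with their neighbours and their transcripts are cut afterwards.

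The RefSeq gene table of the TAIR10.1 assembly lists 5 psa, 15 psb, 6 pet, 6 atp and 12 ndh genes, 1 rbcL gene and 4 genes named ycf3, ycf4, cemA or ccsA. These are 49 in all, the number of loci studied. Its locus tags differ from the identifiers of the count table, and 0 of the 133 plastid identifiers matched. Single loci are therefore given by identifier, with no gene name or role tied to them. Identifiers are numbered along the plastid chromosome, so the loci were described in runs of directly neighbouring identifiers. There were 16 such runs, of which 6 held 1 locus. With no gene lengths, levels were not compared between genes per length, and shares of counts below are shares of reads, which grow with transcript length.

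The 6 libraries held 16161800 to 19599058 counts each. FVE (AT2G19520), the gene of the mutant, had 6.61, 5.63 and 5.40 CPM in fve-8 and 9.97, 8.67 and 8.998 CPM in WT, where CPM, the usual unit scaled for depth, was taken over the TMM-scaled library size. TMM scaling, from edgeR, sets library sizes so that most features show no difference. The fve-8 libraries differed more from each other than the WT libraries did. Over all features that passed the filter on low counts, chi-square per degree of freedom was 18.7 to 47.1 between pairs of fve-8 libraries. Between pairs of WT libraries it was 2.76 to 4.25. Replicate 3 of fve-8 stood apart. It had 2.07% of its counts on non-coding loci, where replicates 1 and 2 had 0.677% and 0.804% and WT had 0.769% to 0.830%. Results that rest on it are given with and without it.

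The 49 loci took a smaller part of the RNA in fve-8 seedlings than in WT seedlings. They held 34.0%, 29.2% and 33.1% of all counts in the fve-8 libraries, against 40.4%, 41.1% and 40.1% in the WT libraries. The 3 fve-8 values lay below all 3 WT values, and fve-8 replicate 2 was the lowest. The means were 32.1 ± 2.52% in fve-8 and 40.5 ± 0.558% in WT (SD, n = 3 each), a difference of -8.42 percentage points whose two-sided exact permutation p of 0.1 is the lowest a design of this size can reach. Counted against nuclear genes, there were 56.7, 44.9 and 57.0 counts on the 49 loci per 100 nuclear counts in fve-8, against 76.7, 79.0 and 75.2 in WT (exact permutation p = 0.1). The summed CPM of the loci was 288092 ± 43265 in fve-8 and 455201 ± 11361 in WT, a ratio of 0.633. Nuclear genes held 61.1 ± 3.65% of the library in fve-8 and 52.7 ± 0.593% in WT. All of these measures are relative, so whether the amount of plastid RNA itself differed was not tested. In RNA from whole seedlings, fewer cells of a type or fewer chloroplasts and less RNA in each cannot be told apart either.

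Within the plastid counts the difference was small. The 49 loci held 88.7%, 88.6% and 86.0% of plastid counts in fve-8, against 89.1%, 89.6% and 89.3% in WT. The groups did not overlap, and their difference of -1.58 percentage points also had the smallest possible exact permutation p of 0.1. Without fve-8 replicate 3 the difference was -0.697 percentage points. The other 84 plastid loci held 4.49 ± 0.833% of the library in fve-8 and 4.83 ± 0.0883% in WT, ranges that overlapped (exact permutation p = 0.7). That overlap came from fve-8 replicate 3 at 5.39%, while fve-8 replicates 1 and 2, at 4.35% and 3.75%, were below the WT libraries at 4.77% to 4.93%.

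**Figure D1:**
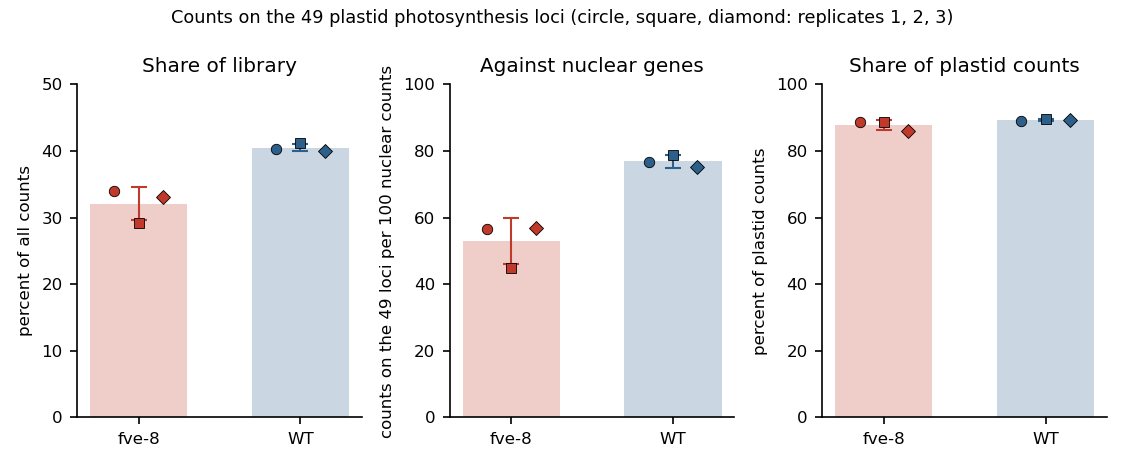
Share of counts on the 49 plastid photosynthesis loci in each library (points) with the genotype mean and SD (bars), as a percentage of the library, per 100 nuclear counts and as a percentage of plastid counts. The fve-8 libraries lie below the WT libraries in all 3 measures, by most in the counts per 100 nuclear counts (52.9 ± 6.91 in fve-8 against 76.9 ± 1.91 in WT).

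Gene by gene, most of the loci were lower in fve-8 relative to the bulk of the transcriptome. Of the 49 loci, 47 passed the filter on low counts. By edgeR's quasi-likelihood test on TMM-scaled counts with Benjamini-Hochberg adjustment over 19543 features, 28 fell, 0 rose and 19 did not pass the threshold of 0.05. At an unadjusted p under 0.05 by the same test, for which no share of all features is given here, 34 were lower and 0 higher. DESeq2 called 31 lower and 0 higher, beside 792 lower and 1210 higher of 21515 features. Over all features tested by edgeR, 5.07% were called lower and 6.6% were called higher after adjustment. The median log2 fold change of the 47 loci was -0.58, with quartiles of -0.74 and -0.47 and a range of -1.04 to 0.06, beside a median of -0.01 over all features. The estimate was below 0 for 46 of the 47. In 33 loci, including all 28 called, every fve-8 library lay below every WT library in CPM, a pattern found in 17.4% of all features.

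The number of calls depended on single libraries, and the direction much less. Without fve-8 replicate 3, 46 of the loci were called lower, the earlier 28 among them, with a median of -0.74, while 10% of all features were called lower. Without fve-8 replicate 2, 10 were called lower, and 1.46% of all features. Without WT replicate 1, 2 or 3, the lower calls numbered 3, 3 and 5, and the share of all features called lower was 0.642%, 0.712% and 1.38%. The medians of the loci were then -0.57, -0.59 and -0.60. Scaled by library totals, which puts the median of all features at 0.33, 10 loci were called lower, beside 0.988% of all features, and their median was -0.27. ATCG00560, ATCG00590 and ATCG00690 were called lower under each of the 13 alternatives run.

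The locus with the most reads, ATCG00020, had 104876, 82362 and 113209 CPM in fve-8, against 149373, 157430 and 158574 CPM in WT. The groups did not overlap, but with a log2 fold change of -0.63 ± 0.23 (SE) and an adjusted p of 0.105 by edgeR it was not called. Its share of plastid counts was the same size in both genotypes, 30.5 ± 1.08% in fve-8 and 30.5 ± 1.03% in WT (SD, n = 3 each). ATCG00490, next in abundance, had 55519, 45795 and 61069 CPM in fve-8 and 88571, 93200 and 89289 CPM in WT. It fell by 0.74 ± 0.21 on the log2 scale (adjusted p = 0.0481 by edgeR). Together these loci held 47.0 ± 1.43% of plastid counts in fve-8 and 48.2 ± 1.13% in WT (exact permutation p = 0.4). With ATCG00020 left out of the loci and of the library, the other loci held 23.6 ± 1.88% of the library in fve-8 and 31.0 ± 0.779% in WT, again without overlap.

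The lowest estimate was in the run from ATCG00680 to ATCG00730, where 5 of 6 loci were called lower. ATCG00690 had 3599, 3048 and 3402 CPM in fve-8 and 6937, 7231 and 6554 CPM in WT, and ATCG00680 beside it had 15108, 12475 and 16156 CPM in fve-8 and 27017, 28072 and 25932 CPM in WT. Every fve-8 library was far below every WT library in both. The log2 fold changes were -1.04 ± 0.14 for ATCG00690 (adjusted p = 0.00315 by edgeR) and -0.89 ± 0.18 for ATCG00680 (adjusted p = 0.0141). ATCG00710, ATCG00720 and ATCG00730 fell by 0.71, 0.73 and 0.80 on that scale. ATCG00700, which stands between them in the numbering, was the 1 locus of the 47 with an estimate above 0. It had 247, 207 and 594 CPM in fve-8, against 303, 362 and 343 CPM in WT, so that 2 fve-8 libraries lay below WT and replicate 3 above it. Its log2 fold change was 0.06 ± 0.32 with all libraries and -0.55 without fve-8 replicate 3 (adjusted p = 0.00507).

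The run of 10 loci from ATCG00510 to ATCG00600 had 7 lower calls. Its steadiest members were ATCG00560, with 792, 712 and 854 CPM in fve-8 against 1404, 1499 and 1403 CPM in WT, and ATCG00590, with 546, 461 and 441 CPM in fve-8 against 815, 885 and 846 CPM in WT. Their groups stood well apart, with log2 fold changes of -0.87 ± 0.12 (adjusted p = 0.00336 by edgeR) and -0.81 ± 0.12 (adjusted p = 0.00433). ATCG00550 and ATCG00600 fell by 0.73 and 0.77, and ATCG00520, ATCG00530 and ATCG00570 by 0.44, 0.54 and 0.56. ATCG00540 had 1531, 1395 and 1820 CPM in fve-8, below each WT library at 2009, 2156 and 2009 CPM, but was not called (log2 fold change -0.38 ± 0.14, adjusted p = 0.101 by edgeR).

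ATCG00510 had 1546, 1245 and 4350 CPM in fve-8 and 3548, 3281 and 3398 CPM in WT. Replicates 1 and 2 of fve-8 were below all WT libraries and replicate 3 was above them, so the groups overlapped and the change was not called (adjusted p = 0.418 by edgeR). Without fve-8 replicate 3 its log2 fold change was -1.27 (adjusted p = 9.27e-05). ATCG00630, a run of its own, showed the same split, with 5081, 4145 and 12376 CPM in fve-8 and 9801, 10014 and 8893 CPM in WT.

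The called loci of the remaining runs fell by 0.50 to 0.77. ATCG00470 and ATCG00480, which neighbour the abundant ATCG00490, fell by 0.51 and 0.53 on the log2 scale. In the run from ATCG00120 to ATCG00150, 3 of 4 loci fell, by 0.56 to 0.64. ATCG00270 and ATCG00280 fell by 0.61 and 0.66, and ATCG00340 and ATCG00350 both by 0.74. ATCG00070, ATCG00300 and ATCG01010 fell by 0.75, 0.77 and 0.64. From ATCG01040 to ATCG01110, a run of 8, 3 loci were called lower (ATCG01070, ATCG01090 and ATCG01100, by 0.66, 0.57 and 0.50), and ATCG01110 had the highest estimate of the run, -0.26 ± 0.11 (adjusted p = 0.152 by edgeR). The pair ATCG00210 and ATCG00220 had no call. ATCG00220 had 265, 182 and 443 CPM in fve-8, below all WT libraries at 527, 542 and 547 CPM, with a log2 fold change of -0.86 ± 0.26 (adjusted p = 0.0564 by edgeR). That of ATCG00210 was -0.30 ± 0.29, with groups that overlapped.

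**Figure D2:**
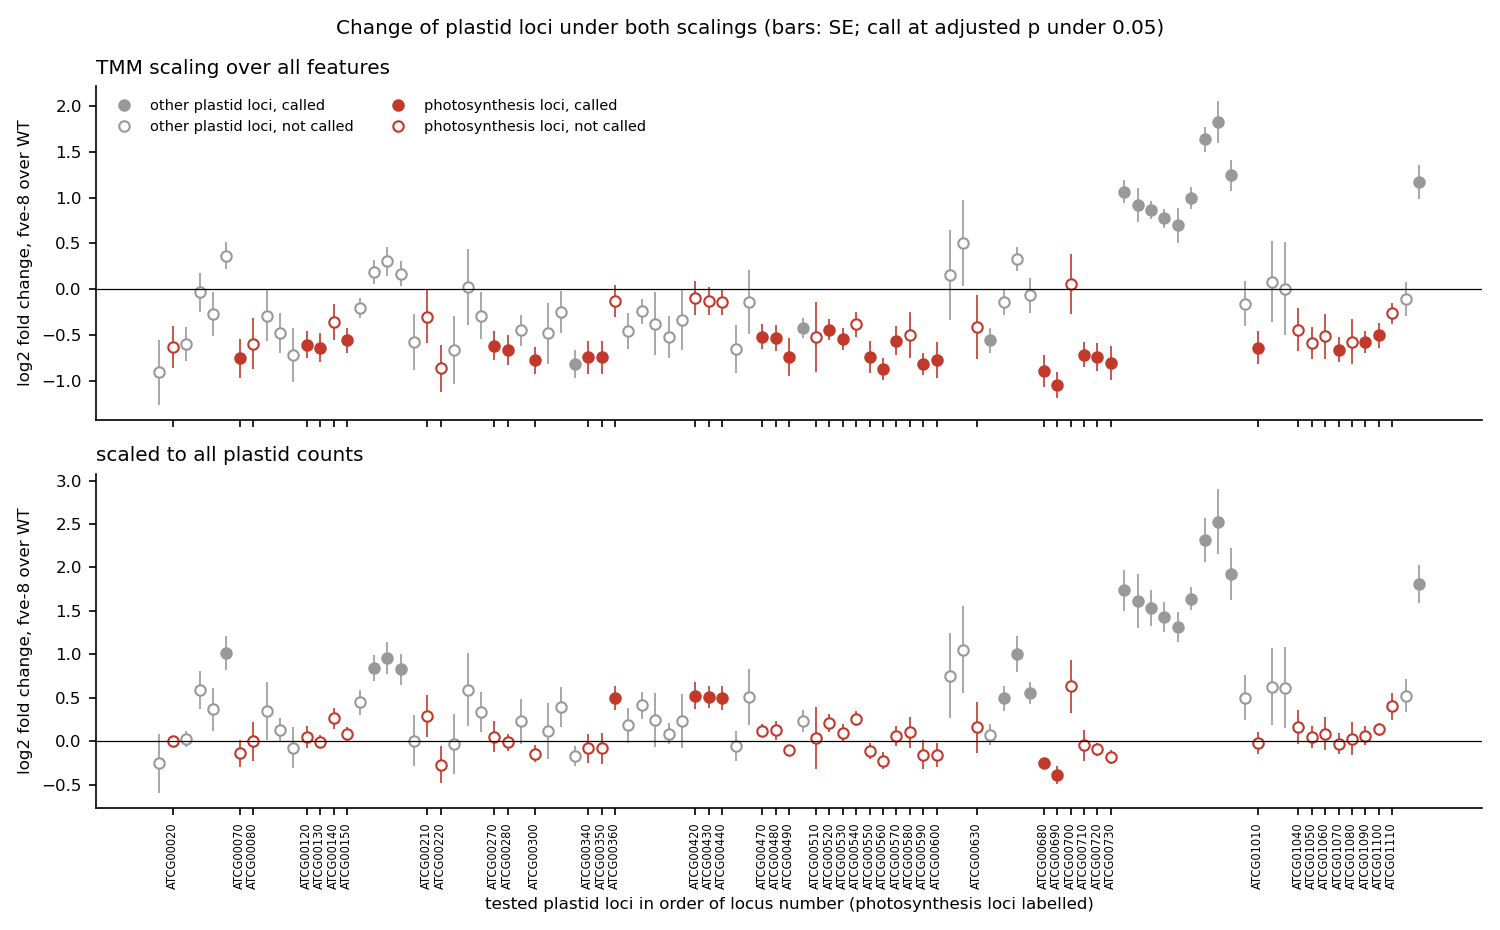
Log2 fold change of fve-8 over WT with its SE for the 47 tested photosynthesis loci (red) and the other tested plastid loci (grey) in the order of their identifiers, after TMM scaling over all features and within plastid counts, with called loci filled. After TMM scaling 46 of the 47 red points lie below 0, with a median of -0.58, and within plastid counts, of which these loci make up most, 20 of the 47 lie below 0, with a median of 0.05.

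The plastid loci were then compared among themselves, with each library's plastid total as its library size, so that the lower plastid share of fve-8 drops out. Few loci then passed the test. Of 47 tested, 2 fell, 4 rose and 41 were not called, beside 2.11% lower and 22.1% higher among all 95 plastid loci tested. The median log2 fold change was 0.05 and the range -0.39 to 0.63, with 20 of the 47 below 0. The 49 loci make up most of the plastid total used as library size, which by construction holds their summed change near 0. Scaled by TMM within the plastid loci, the median was -0.15, with 37 of the 47 below 0, 2 called lower and 0 higher. Of the 28 loci called lower on the TMM scale, 26 were not called within plastid counts. The groups did not overlap in 18 loci, with fve-8 below WT in 7 and above WT in 11, beside 7.37% and 35.8% of the 95 loci.

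Both loci that fell within plastid counts were neighbours. ATCG00690 held 1.09%, 1.11% and 0.891% of plastid counts in fve-8 and 1.38%, 1.38% and 1.31% in WT. ATCG00680 held 4.57%, 4.56% and 4.23% in fve-8 and 5.36%, 5.37% and 5.17% in WT. All fve-8 libraries were lower in both. The log2 fold changes were -0.39 ± 0.10 for ATCG00690 (adjusted p = 0.0343 by edgeR) and -0.25 ± 0.06 for ATCG00680 (adjusted p = 0.0234). The run of 6 loci that holds them took 8.83 ± 0.385% of plastid counts in fve-8 and 10.3 ± 0.142% in WT (SD, n = 3 each). Leaving out any 1 WT library ended both calls, and leaving out any 1 fve-8 library ended neither.

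The 4 loci that rose within plastid counts were ATCG00360 and the run from ATCG00420 to ATCG00440. ATCG00430 held 0.362%, 0.484% and 0.460% of plastid counts in fve-8 and 0.312%, 0.294% and 0.314% in WT. ATCG00420 held 0.193%, 0.248% and 0.281% in fve-8 and 0.170%, 0.161% and 0.171% in WT, and ATCG00440 held 0.193%, 0.260% and 0.238% in fve-8 and 0.162%, 0.161% and 0.166% in WT. All fve-8 libraries were above all WT libraries in these loci. The log2 fold changes were 0.51 ± 0.13 for ATCG00430 (adjusted p = 0.0312 by edgeR), 0.52 ± 0.15 for ATCG00420 (adjusted p = 0.0475) and 0.50 ± 0.13 for ATCG00440 (adjusted p = 0.0376). The run of 3 as a whole took 0.906 ± 0.138% of plastid counts in fve-8 and 0.637 ± 0.0187% in WT.

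ATCG00360 held 0.250%, 0.319% and 0.343% of plastid counts in fve-8 and 0.224%, 0.206% and 0.216% in WT. It rose by 0.50 ± 0.14 on the log2 scale (adjusted p = 0.0402 by edgeR), while ATCG00340 and ATCG00350 in its run were at -0.08 each and were not called. On the TMM scale the 4 loci were not called, with log2 fold changes of -0.13, -0.10, -0.13 and -0.14 for ATCG00360, ATCG00420, ATCG00430 and ATCG00440, and with groups that overlapped. Under library totals the same estimates were 0.19, 0.21, 0.19 and 0.18, none called. All 4 calls within plastid counts were lost under TMM scaling of the plastid loci, and when any 1 WT library or fve-8 replicate 2 was left out.

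**Figure D3:**
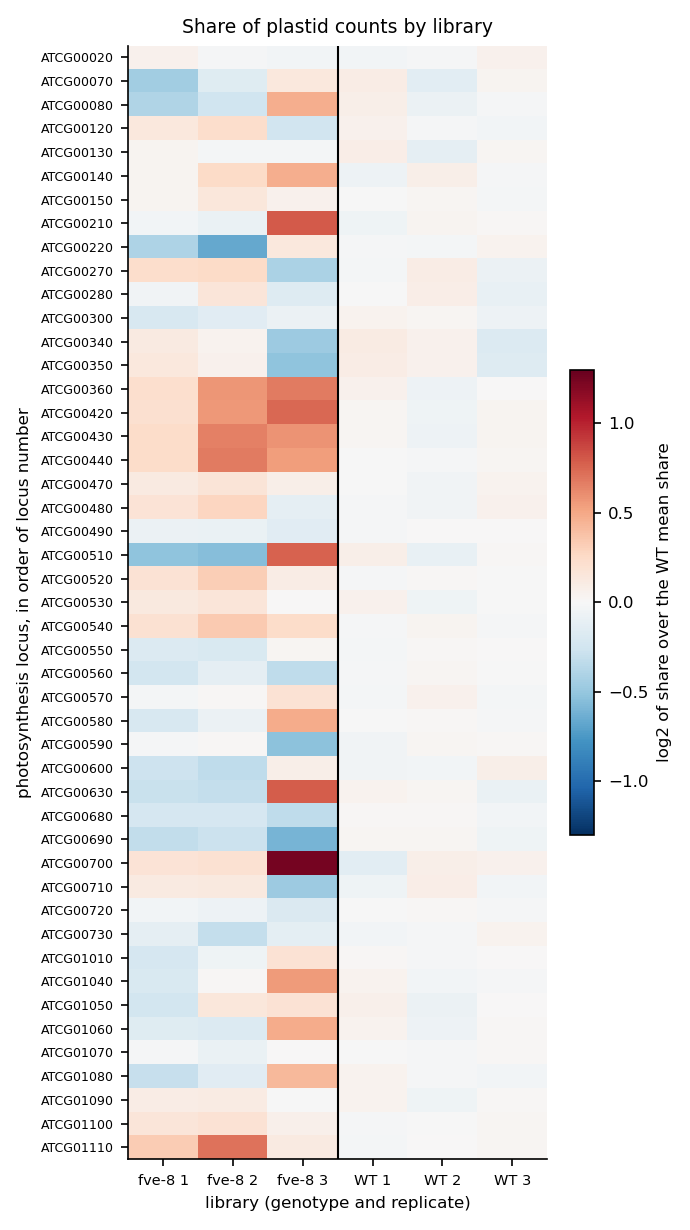
Share of plastid counts of each tested locus in each library as a log2 ratio to the WT mean, with fve-8 libraries in the left columns and WT libraries in the right ones and loci down the page in the order of their identifiers. The WT columns are close to even (at most 1.21 times apart in a row), while fve-8 replicate 3 departs from replicates 1 and 2 in many rows, such as ATCG00510 and ATCG00630.

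Replicate 3 of fve-8 departed from the other fve-8 libraries in many of the loci. Its share of plastid counts was over 1.5 times the mean of fve-8 replicates 1 and 2 in 10 of the 47 loci and under that mean by more than 1.5 times in 3. ATCG00510, ATCG00630, ATCG00700, ATCG00210 and ATCG00080 were highest, at 2.47, 2.12, 2.07, 1.81 and 1.73 times the mean. ATCG00270 was lowest, at 0.636 times. Between fve-8 replicates 1 and 2 the ratio ran from 0.833 to 1.35, beyond 1.5 times in 0 loci, and among WT libraries the highest was at most 1.21 times the lowest. Where this difference comes from was not tested.

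**Figure D4:**
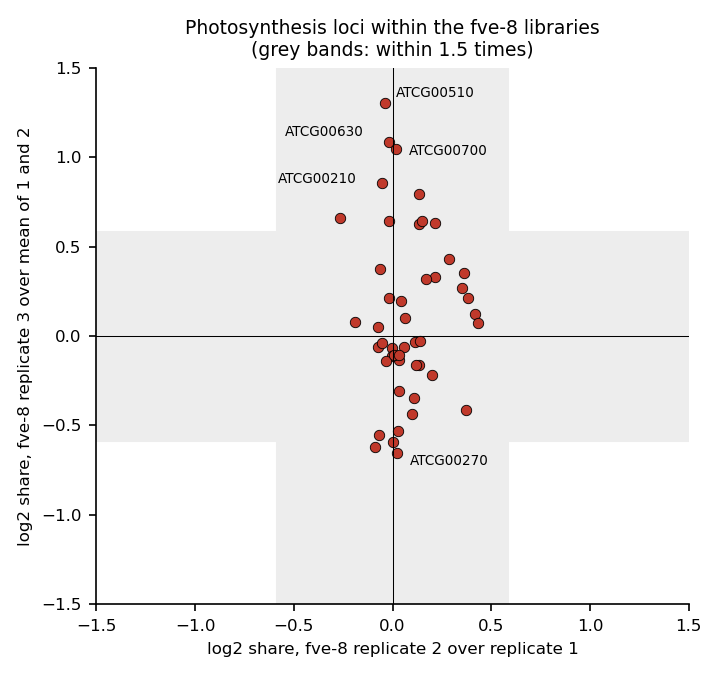
Share of plastid counts of the 47 tested loci within the fve-8 libraries, with the log2 ratio of replicate 2 over replicate 1 on the horizontal axis and of replicate 3 over the mean of replicates 1 and 2 on the vertical one. Points spread further up and down (ratios of 0.636 to 2.47, with ATCG00510 highest) than sideways (0.833 to 1.35), where none leaves the grey band of 1.5 times.

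Without that library, 9 loci were called lower within plastid counts and 11 higher, including the earlier 6, beside 10.4% lower and 32.3% higher of 96 plastid loci tested. The added lower calls were ATCG00080, ATCG00220, ATCG00510, ATCG00550, ATCG00600, ATCG00630 and ATCG00730. The added higher calls were ATCG00120, ATCG00270, ATCG00480, ATCG00520, ATCG00540, ATCG01100 and ATCG01110. The change was greatest for ATCG00510, which had a log2 fold change of 0.04 ± 0.35 with all libraries and -0.54 without fve-8 replicate 3 (adjusted p = 0.00141 by edgeR). ATCG01110 was at 0.40 ± 0.16 with all libraries and at 0.53 without it (adjusted p = 0.0117), and its fve-8 libraries were above all WT libraries in either case.

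Among the other plastid loci, higher calls outnumbered lower ones. Of 48 tested, 3 fell and 10 rose on the TMM scale, beside 5.07% and 6.6% of all features. Their median log2 fold change was -0.14. Within plastid counts 0 fell and 17 rose by edgeR, with a median of 0.50, and 0 were lower at an unadjusted p under 0.05 or by DESeq2. The highest was ATCG00810, with 361, 398 and 203 CPM in fve-8 and 104, 77.7 and 90.05 CPM in WT, and all 9 loci of its run, ATCG00740 to ATCG00820, rose on both scales. Without fve-8 replicate 3 the other plastid loci had 20 lower and 10 higher calls on the TMM scale, beside 10% and 12.3% of all features. Within plastid counts, 9 rose when WT replicate 2 was left out and 9 when WT replicate 3 was. The photosynthesis loci and the other plastid loci were not compared by a test.

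Of the 49 loci, 2 gave no usable reads. ATCG01250 had 0 counts in all 6 libraries and ATCG00890 had 1 count in all. They lie in stretches of the numbering where other loci were near 0 too, with at most 16 counts in a library over the 18 loci from ATCG00830 to ATCG00990 and at most 6 over the 18 loci from ATCG01140 to ATCG01310. The table lists 2 ndhB genes. The sources used here do not say how reads matching several places were counted. A count of 3 corresponds to 0.127 to 0.206 CPM in these libraries. The tested loci had 2701 counts or more in each library.

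Few genes on the nuclear photosynthesis lists were called. These lists hold subunits of the same complexes and some related proteins, such as RCA, PSB27 and PETE1. The photosystem I list includes the antenna genes LHCA1 to LHCA4, while the photosystem II list includes no LHCB genes. Of 51 such genes tested, 0 were called lower and 3 higher on the TMM scale, beside 4.93% and 6.28% of nuclear genes, and their median log2 fold change was -0.03. At an unadjusted p under 0.05 by edgeR, 5 were lower and 6 higher, and DESeq2 called 1 lower. Without fve-8 replicate 3, 3 were called lower (PSBW, PSAG and LHCA3) and 5 higher, beside 10% and 12.3% of all features. With replicate 1 of WT left out, and likewise replicate 2 of WT or of fve-8, 1 was called higher. The medians were -0.02 for 13 photosystem II genes, -0.19 for 16 photosystem I genes, 0.02 for 6 electron transport genes, -0.05 for 2 ATP synthase genes and -0.07 for 5 Rubisco genes. The photosystem I genes had sums of 17742 to 19415 CPM in fve-8, below WT at 20018.5 to 22007 CPM. Sums of the NDH complex list were above WT, at 373 to 437 CPM in fve-8 and 298 to 330 CPM in WT. Over all 51 genes the sums overlapped, at 49691 to 59988 CPM in fve-8 and 57560 to 62738 CPM in WT. The 3 genes that rose were of the NDH complex list, which had a median of 0.34 over 9 genes. NdhM had 34.3, 42.5 and 33.3 CPM in fve-8 and 18.8, 18.2 and 17.7 CPM in WT (log2 fold change 1.01 ± 0.12, adjusted p = 0.00151 by edgeR). NdhO, with 19.4, 22.0 and 17.9 CPM in fve-8 and 12.2, 13.3 and 15.04 CPM in WT, rose by 0.56.

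Some nuclear genes of plastid transcription rose. Of 6 sigma factors, which direct the plastid-encoded polymerase to promoters, 2 rose and 0 fell by edgeR (1 was lower at an unadjusted p under 0.05, and 0 by DESeq2), with a median log2 fold change of 0.39, beside 6.28% of nuclear genes called higher. Without fve-8 replicate 3 there were 4 higher calls, beside 12.3% of all features. With replicate 1 of WT, replicate 2 of WT or replicate 2 of fve-8 left out in turn there was 1. SIGA (AT1G64860) had 28.3, 34.6 and 28.0 CPM in fve-8 and 16.3, 15.3 and 17.7 CPM in WT, and SIG2 (AT1G08540) had 57.3, 60.2 and 41.2 CPM in fve-8 and 28.1, 28.6 and 35.9 CPM in WT. Neither overlapped between genotypes, with log2 fold changes of 0.88 ± 0.12 (adjusted p = 0.00298 by edgeR) and 0.78 ± 0.16 (adjusted p = 0.0143). Of 12 proteins associated with the polymerase, 4 rose and 0 fell by edgeR (0 lower at an unadjusted p under 0.05, and 0 by DESeq2), with a median of 0.30. PTAC12, known also as HEMERA, had 35.7, 38.7 and 22.5 CPM in fve-8 and 12.8, 10.98 and 18.4 CPM in WT (log2 fold change 1.21 ± 0.23, adjusted p = 0.0119 by edgeR). PDE312, known also as PTAC10, rose by 0.71. With replicate 1 of WT, replicate 2 of WT or replicate 2 of fve-8 left out in turn, 0 of these 12 passed the edgeR test, and 4, 4 and 5 were higher at an unadjusted p under 0.05. A further 2 nuclear genes, listed as phage-type polymerases, were left out because their names were not found. These, AT2G24120 and AT5G15700, were at 0.15 and 0.17 and were not called (adjusted p = 0.416 and 0.616 by edgeR).

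Of 11 plastid RNA processing factors 0 were called by edgeR or DESeq2 and 0 had an unadjusted p under 0.05, with a median of 0.01. Without fve-8 replicate 3, 2 of them were higher at an unadjusted p under 0.05 by edgeR. A further 3 listed factors were left out because their names were not found. These, AT5G08720, AT5G42310 and AT5G63420, were at 0.41, 0.34 and 0.16 (adjusted p = 0.115, 0.139 and 0.603 by edgeR). Each was called higher without fve-8 replicate 3. Among 7 regulators of greening, HEMA1 and POR C, enzymes of tetrapyrrole and chlorophyll synthesis, rose by 0.55 and 0.62, and the median of the 7 was 0.01. Without WT replicate 1, and without WT replicate 2, 0 of the 7 passed the edgeR test, and 2 were higher at an unadjusted p under 0.05 in each case. GLK2, a transcription factor of chloroplast development named after its values were seen, had 131, 111 and 136 CPM in fve-8, below WT at 148, 153 and 171 CPM. Its log2 fold change was -0.32 ± 0.11 (adjusted p = 0.0882 by edgeR), and it was called lower without fve-8 replicate 3.

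Markers of cell types and stages differed between the genotypes as well. Their lower calls stand beside 4.93% of all nuclear genes called lower. All 4 seed storage and oil body genes fell, with a summed level of 9.46 to 16.9 CPM in fve-8 and 57.6 to 99.7 CPM in WT. Of the mesophyll markers 2 of 5 fell, with sums of 15459 to 19094 CPM in fve-8 and 19655 to 20995 CPM in WT. The 2 that fell, CAB2 and LHB1B1, encode antenna proteins of photosystem II that were not on the list of photosystem II subunits, and their log2 fold changes were -0.46 ± 0.13 (adjusted p = 0.0496 by edgeR) and -0.82 ± 0.14 (adjusted p = 0.00775). They are named after their values were seen. Of the root markers 3 of 4 fell, with sums of 1723 to 2025 CPM in fve-8 and 1875 to 2138 CPM in WT. Most of these sums came from PYK10, the root marker not called, at 1690 to 1992 CPM in fve-8 and 1819 to 2079 CPM in WT. The epidermis markers gave 2 of 3 lower, with sums of 217 to 283 CPM in fve-8 and 330 to 351 CPM in WT. The phloem markers gave 1 of 2 lower, with sums of 24.1 to 31.0 CPM in fve-8 and 35.6 to 37.7 CPM in WT. PORA, abundant in seedlings grown in darkness, had 5.89 to 10.9 CPM in fve-8 and 8.75 to 10.0 CPM in WT and was not called. None of these markers was at 0. Their part in the plastid result was not tested.

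**Figure D5:**
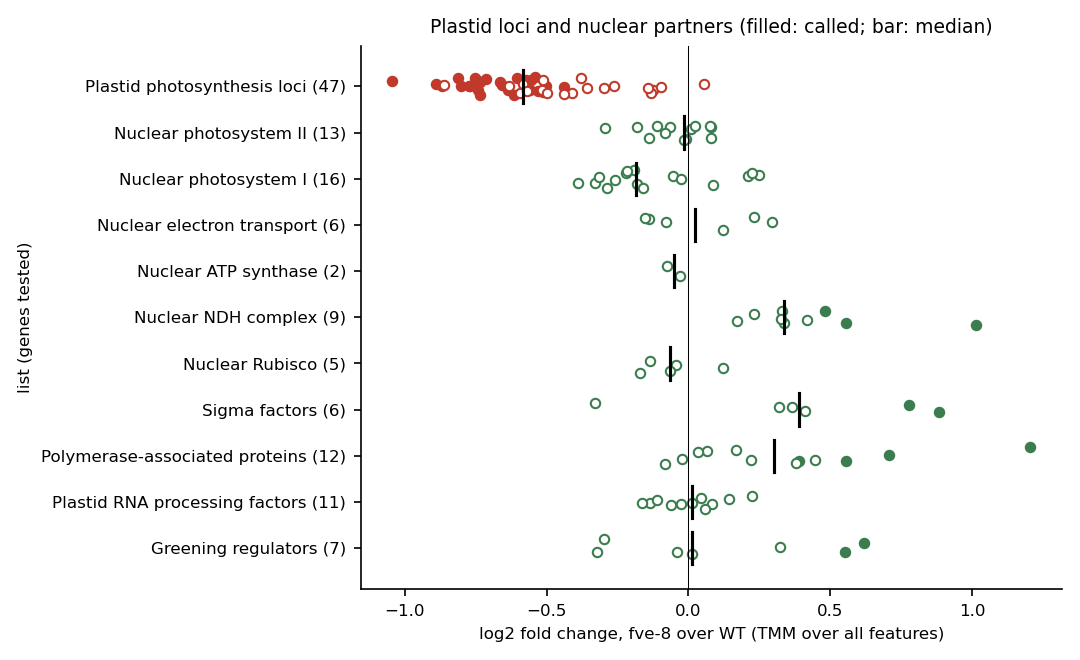
Log2 fold change of fve-8 over WT on the TMM scale for the 47 plastid loci and for the nuclear lists, each point 1 gene, with the median of each list as a bar. The plastid loci are centred at -0.58 and the nuclear photosystem II and photosystem I lists at -0.02 and -0.19. The NDH complex, sigma factor and polymerase-associated lists are centred at 0.34, 0.39 and 0.30.

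The authors' deposited table of the same comparison gives adjusted p-values for these loci. At a threshold of 0.05 the authors' deposited table has 31 of the 49 lower and 0 higher, and all 28 loci called lower here were among the 31.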

How the data were processed

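Gene counts of 6 RNA libraries, 3 of fve-8 and 3 of WT, were taken as deposited by the authors. Per the submitters' processing notes, TopHat2, SAMtools, HTSeq and edgeR were used. The sources used here do not give versions, genome build or the handling of strand, overlapping genes and multiply matching reads, so reads of overlapping loci cannot be told apart. Columns of log2 fold changes and adjusted p-values came from the authors' deposited table. The table's 14 other per-sample columns were not used.

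Counts were fitted in edgeR 4.0.16 (R 4.3.3) by the quasi-likelihood test with genotype as the only term, filterByExpr with its minimum count of 10, TMM scaling and Benjamini-Hochberg adjustment over all features tested, with calls at 0.05. A second fit took all 133 plastid loci with the plastid total as library size. It had been laid out for protein-coding plastid loci, but the identifiers carry no gene names here, so all plastid loci were used, and loci were described by runs of neighbouring identifiers in place of protein complexes. Shares were compared by exact two-sided permutation tests over libraries in scipy 1.17.1. Both fits were tested on simulated data. DESeq2 1.42.0 served as an alternative.

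Per library, 5353831 to 7292264 counts fell on the loci, so counting error is small beside the spread between libraries. PCR duplicates are not independent molecules. Plastid loci with values in each library were picked after their values were seen, and not by a fixed rule per run. Per nuclear list, genes with such values are the called ones with the largest change, at most 2, besides GLK2. The nuclear lists cover photosynthesis genes, sigma factors, phage-type polymerases, polymerase-associated proteins, RNA processing factors, greening regulators and cell markers. From these, 7 listed genes whose names were not found in RefSeq were left out. The loci and lists were chosen with earlier results of these data known. Same-numbered libraries were not treated as pairs in the main fits.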

Additional observations from a re-analysis of the deposited data

How the results depend on the processing

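The shares of the 49 loci in library and plastid counts kept their direction in every setting run. With 1 library left out, the differences were -9.35 to -6.98 and -2.02 to -0.70 percentage points. The smallest were -6.98 without fve-8 replicate 2 and -0.70 without fve-8 replicate 3. Lower calls among the 49 loci after TMM scaling (28) were 10 with library totals and 16 with the replicate block, and 3 to 46 with 1 library left out. Of all 19543 features tested, 193 were called lower with library totals and 461 with the replicate block. Higher calls were 0 throughout. Within plastid counts, lower calls (2) were 1 with all features fitted and 1 with the replicate block, and 0 to 9 with 1 library left out. Higher calls (4) were 0 with TMM within the plastid loci and 0 with the replicate block, and 0 to 11 with 1 library left out. Nuclear photosynthesis genes called lower (0) were 1 by DESeq2 and 0 to 3 with 1 library left out, and those called higher (3) were 16 with library totals and 1 to 5 with 1 library left out. Other plastid loci called lower after TMM scaling (3) were 5 by DESeq2, 1 with library totals, 6 with no count filter, 1 with the replicate block and 0 to 20 with 1 library left out. Those called higher (10) were 15 with library totals and 7 to 13 with 1 library left out. With library totals, 5587 of the 19543 features tested were called higher, beside 16 of 51 nuclear photosynthesis genes and 15 of 48 other plastid loci. Within plastid counts, other plastid loci called lower (0) were 0 to 1 and those called higher (17) 9 to 21 with 1 library left out. The cause of these changes was not tested.

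Among the loci whose estimates were followed through each setting (40 after TMM scaling, 20 within plastid counts), signs that reversed were of estimates not called with all libraries. After TMM scaling, library totals gave 0.19 for ATCG00360, 0.21 for ATCG00420, 0.19 for ATCG00430, 0.18 for ATCG00440 and 0.076 for ATCG01110, and the replicate block gave -0.11 for ATCG00700. With 1 library left out, ATCG00420 ran from -0.36 to 0.039 and ATCG00700 from -0.55 (without fve-8 replicate 3) to 0.32. Within plastid counts, 37 of the 47 tested loci were below 0 with TMM, against 20 with the plastid total, and of the loci followed TMM gave -0.12 for ATCG00120, -0.11 for ATCG00270, -0.052 for ATCG00480, -0.20 for ATCG00510, -0.066 for ATCG00630 and -0.045 for ATCG01100. Counts on the 49 loci as library size, a choice made after seeing the data, gave 0.028 for ATCG00080, and the replicate block gave -0.11 for ATCG00510. With 1 library left out, ATCG00080 ran from -0.32 to 0.16, ATCG00120 from -0.046 to 0.18, ATCG00270 from -0.058 to 0.24, ATCG00510 from -0.54 to 0.26 and ATCG00630 from -0.30 to 0.35. The lowest values of ATCG00080, ATCG00510 and ATCG00630 came without fve-8 replicate 3.

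Deviations of same-numbered libraries correlated at -0.01, -0.06 and -0.15 over all features and at -0.02, -0.13 and 0.15 over plastid features. The replicate numbers were not used as pairs in the main fits. With 3 libraries per genotype, these correlations cannot exclude a shared batch. Leaving out ribosomal and transfer RNA loci was not run, because the identifiers carry no gene names here.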
